A study of Mus musculus with 50 samples.

Results

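The clustered protocadherins are cell-surface adhesion proteins encoded by 3 tandem gene arrays, called alpha, beta and gamma, and they were followed here in the E13.5 mouse brain after mutation of Gtf2i or of Gtf2ird1. Members were all genes of the deposited table whose symbol began with Pcdha, Pcdhb, Pcdhga, Pcdhgb or Pcdhgc followed by an isoform number, which gave 29 of 11708 genes. The alpha cluster contributed 1 gene (Pcdhac2), the beta cluster 9 genes (Pcdhb3, Pcdhb6, Pcdhb7, Pcdhb16, Pcdhb17, Pcdhb18, Pcdhb19, Pcdhb21 and Pcdhb22) and the gamma cluster 19 genes. RefSeq lists 58 symbols of the family on assembly GRCm38.p6, of which 14 are alpha, 22 are beta and 22 are gamma, and the 29 symbols outside the table were not analysed here. All of them lie on chromosome 18, with alpha between positions 36930285 and 37188897, beta between 37264998 and 37521419, and gamma between 37661775 and 37841873.

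RNA was sequenced from whole brains of 18 embryos of strain FVB/ANTJ in 6 groups of 3 libraries. The gtf2i cross held embryos labelled wt, gtf2i and gtf2i/gtf2i, and the ird1 cross held a separate set labelled wt, ird1 and ird1/ird1. A label with the allele named once was read as 1 mutant allele, and the label with the allele on both sides of the slash as 2. The kind of mutation, the sex of the embryos and any other allele are not given in the sources used here, and nothing in the labels states whether the 3 libraries of a group came from different litters, so p-values measure only the spread between these libraries. Levels are counts scaled to a common library total, abbreviated CPM. In the gtf2i cross the mean level of Gtf2i itself fell from 624 ± 30.7 CPM (wt) through 368 ± 6.23 CPM (gtf2i) to 82.5 ± 0.797 CPM (gtf2i/gtf2i; SD, n = 3 each). Gtf2ird1, the other targeted gene, had means there of 92.4 ± 7.32 CPM (wt), 136 ± 8.92 CPM (gtf2i) and 267 ± 21.0 CPM (gtf2i/gtf2i; SD, n = 3 each). In the ird1 cross Gtf2ird1 stood at 98.2 ± 13.5 CPM (wt) and 223 ± 4.21 CPM (ird1/ird1; SD, n = 3 each), so the labelled mutation did not come with a lower count of its transcript. Chromatin samples of the same series were not analysed here.

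Each alpha and gamma transcript begins with its own variable exon, which encodes the extracellular cadherin repeats, and ends in constant exons shared by its cluster. Beta genes consist of a single coding exon each and lack the constant exons. A neuron transcribes a small, largely random choice of these variable promoters, helped by the architectural factor CTCF and cohesin and restrained by DNA methylation. The resulting set of isoforms is used for homophilic recognition between cells and for self-avoidance of branches of one neuron. The isoforms Pcdhac2, Pcdhgc3 and Pcdhgc4 belong to the C type, which is expressed more uniformly than the A and B types.

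The members were chosen by measured values as well as by name, since the group was proposed after Pcdhb16 was called in gtf2i/gtf2i against wt and Pcdhb22 in the difference between the crosses. Called means a Benjamini-Hochberg adjusted p under 0.05 over all 11708 genes. Values of those comparisons are therefore a description and support nothing. The table had been filtered by its authors, since the smallest value of any gene lay between 2.9 and 3.09 unscaled CPM in each library. The lowest unscaled CPM of 4 of the 29 members was under 4, so the members of the table are those above that minimum in all 18 libraries. A member that was near silent in 1 group is not among them. All 29 members passed the low-count filter of the test, which removed 0 genes. Member counts were small, with a lowest count of 13 in any library, whose counting error alone is 27.7%. Isoforms of these arrays are close in sequence, and alpha and gamma isoforms share exons. How reads shared by isoforms were counted, and with which strand setting, is not given in the sources used here, so values of single isoforms are uncertain.

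Levels per kilobase of transcript, averaged over all 18 libraries, were highest for Pcdhgc3, a C-type isoform, at 17.1 CPM per kb. Pcdhgb6 followed at 6.38 CPM per kb, Pcdhgc4 at 4.94 CPM per kb and Pcdhgb5 at 3.78 CPM per kb. The highest beta gene, Pcdhb7, was at 2.90 CPM per kb, and the lowest member of all, Pcdhb18, at 0.992 CPM per kb. The 3 leading isoforms were thus all gamma genes, and 2 of these 3 were of the C type. Pcdhgc3 alone made up 25.2% ± 0.968 of the summed gamma CPM in wt of the gtf2i cross (SD, n = 3).

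Summed over its 9 measured genes, the beta cluster was lowest in gtf2i/gtf2i. Its 3 wt libraries of the gtf2i cross were at 74.4, 97.7 and 98.5 CPM, its gtf2i libraries at 88.2, 69.8 and 80.9 CPM, and its gtf2i/gtf2i libraries at 52.8, 47.1 and 55.4 CPM. The gtf2i/gtf2i libraries lay below every other library of the study, and wt and gtf2i overlapped. The mean beta sum was 90.2 ± 13.7 CPM (wt), 79.6 ± 9.30 CPM (gtf2i) and 51.8 ± 4.23 CPM (gtf2i/gtf2i; SD, n = 3 each), which put the homozygotes at 57.4% of wt. In the ird1 cross the beta libraries were at 65.6, 69.1 and 71.3 CPM in wt, at 93.4, 60.4 and 65.6 CPM in ird1, and at 80.2, 87.2 and 78.2 CPM in ird1/ird1. There the ird1/ird1 libraries lay above the wt libraries at 119% of the wt mean, and the ird1 libraries spanned both groups.

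The gamma sum moved less. Its mean was 312 ± 18.2 CPM (wt), 292 ± 20.5 CPM (gtf2i) and 266 ± 24.3 CPM (gtf2i/gtf2i; SD, n = 3 each), which put the homozygotes at 85.1% of wt. The highest gtf2i/gtf2i library, replicate 3 at 294 CPM, overlapped the lowest wt library, at 292 CPM. Replicates 1 and 2 of gtf2i/gtf2i, at 250 and 254 CPM, lay below all wt libraries. Split by type, gtf2i/gtf2i stood at 85.1% of wt for the 10 A-type, 80.8% for the 7 B-type and 89.1% for the 2 C-type gamma genes. In the ird1 cross the gamma mean was 312 ± 15.6 CPM (wt) against 319 ± 27.6 CPM (ird1/ird1; SD, n = 3 each), and the groups overlapped. Pcdhac2, the alpha member, was at 12.8, 9.45 and 11.5 CPM in wt and at 6.19, 7.62 and 13.3 CPM in gtf2i/gtf2i, so its groups overlapped too. Its log2 fold change in gtf2i/gtf2i was -0.30 (SE 0.287) against wt. Leaving out gtf2i/gtf2i replicate 3 gave -0.73, and leaving out gtf2i/gtf2i replicate 1 gave -0.074.

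**Figure D1:**
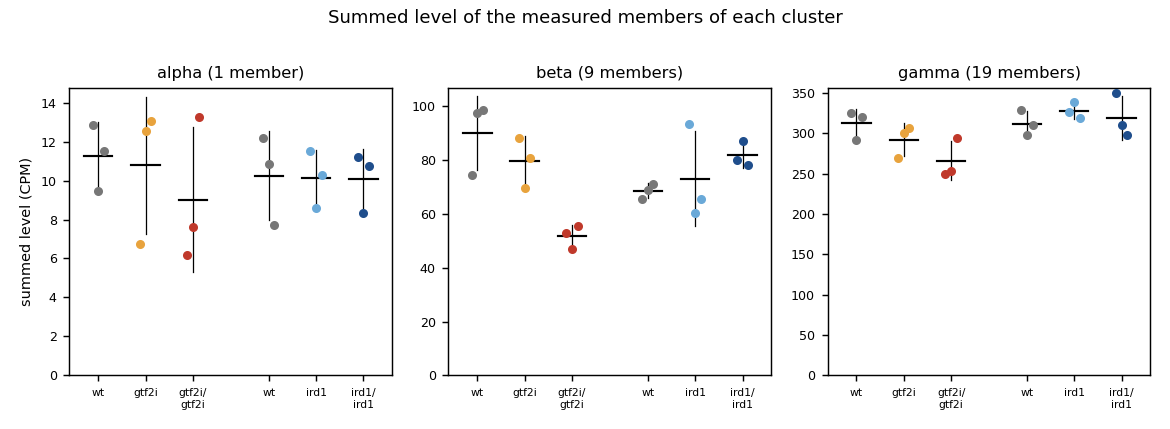
Summed level of the measured genes of the alpha, beta and gamma clusters in CPM (vertical axes, from 0), with 1 point per library, horizontal bars for group means and vertical lines for the SD. The 3 gtf2i/gtf2i libraries sit between 47.1 and 55.4 CPM in the beta panel, below every other library. In the gamma and alpha panels they overlap wt of the gtf2i cross. In the gamma panel they lie below all libraries of the ird1 cross.

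All 9 beta genes had their lowest library, and their lowest group mean, in gtf2i/gtf2i. Against wt all 9 log2 fold changes were below 0, from -1.28 for Pcdhb16 to -0.61 for Pcdhb7, with a median of -0.79. Over all genes tested the median was 0.00 and 49.6% lay below 0, and over the 4897 genes in the length range of the members the median was also 0.00. In 8 of the 9 beta genes the gtf2i/gtf2i libraries lay wholly below the wt libraries, Pcdhb19 being the exception, where 8.98% of all genes did so. Each of the 9 had an unadjusted p under 0.05, as had 18 of all 29 members, where 14.4% of all genes did. One beta gene, Pcdhb16, was called by edgeR's quasi-likelihood test, where 0.94% of all genes were called in this comparison. These 9 fold changes come from the same libraries and from the comparison in which the group was noticed, and the 9 genes are not independent of each other.

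Pcdhb16 (ENSMUSG00000047910, positions 37477768 to 37483038) had the largest fall among the members. Its wt libraries of the gtf2i cross were at 9.34, 12.8 and 14.4 CPM, its gtf2i libraries at 9.15, 7.71 and 9.21 CPM and its gtf2i/gtf2i libraries at 5.15, 5.54 and 4.58 CPM. The 3 genotypes did not overlap, and the gtf2i libraries lay between the other two. The log2 fold change was -1.28 (SE 0.204) in gtf2i/gtf2i against wt, with an edgeR adjusted p of 0.0091 over all genes. Without wt replicate 3 the adjusted p was 0.066 at a fold change of -1.13 (SE 0.224), and with the level of Kdm5c as a covariate it was 0.61 at -1.30 (SE 0.383). Kdm5c itself differed between these genotypes, so the covariate fit cannot tell its level and genotype apart. Libraries of the ird1 cross had Pcdhb16 at 6.17, 10.5 and 7.34 CPM in wt and at 9.14, 9.82 and 7.92 CPM in ird1/ird1, which overlapped.

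Pcdhb22 (ENSMUSG00000073591, positions 37518353 to 37521419) is the last gene of the beta array. In the gtf2i cross it was at 10.8, 15.1 and 12.3 CPM in wt, at 13.3, 8.25 and 9.92 CPM in gtf2i and at 8.59, 5.77 and 6.71 CPM in gtf2i/gtf2i. In the ird1 cross it was at 6.93, 7.90 and 7.72 CPM in wt, at 13.4, 7.78 and 7.37 CPM in ird1 and at 12.0, 13.4 and 12.1 CPM in ird1/ird1. The homozygous libraries lay below their wt in the first cross and above their wt in the second, without overlap in either. The wt groups did not overlap either, and the ird1-cross wt libraries lay at the level of the gtf2i/gtf2i libraries. The log2 fold change was -0.85 (SE 0.218) in gtf2i/gtf2i and 0.74 (SE 0.223) in ird1/ird1.

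Pcdhb17, the beta gene with the highest CPM, was at 11.8, 15.1 and 15.7 CPM in wt and at 10.5, 7.39 and 9.77 CPM in gtf2i/gtf2i, a log2 fold change of -0.62 (SE 0.208). Pcdhb7 was at 11.2, 11.9 and 12.8 CPM in wt and at 7.90, 6.70 and 8.70 CPM in gtf2i/gtf2i, a log2 fold change of -0.61 (SE 0.195). Neither gene overlapped between these groups, and the remaining beta genes ran from 4.17 to 15.3 CPM in wt and from 3.00 to 8.70 CPM in gtf2i/gtf2i. Pcdhb16 held 13.4% ± 1.05 of the summed beta CPM in wt and 9.93% ± 1.76 in gtf2i/gtf2i (SD, n = 3 each), and the shares did not overlap between these groups.

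**Figure D2:**
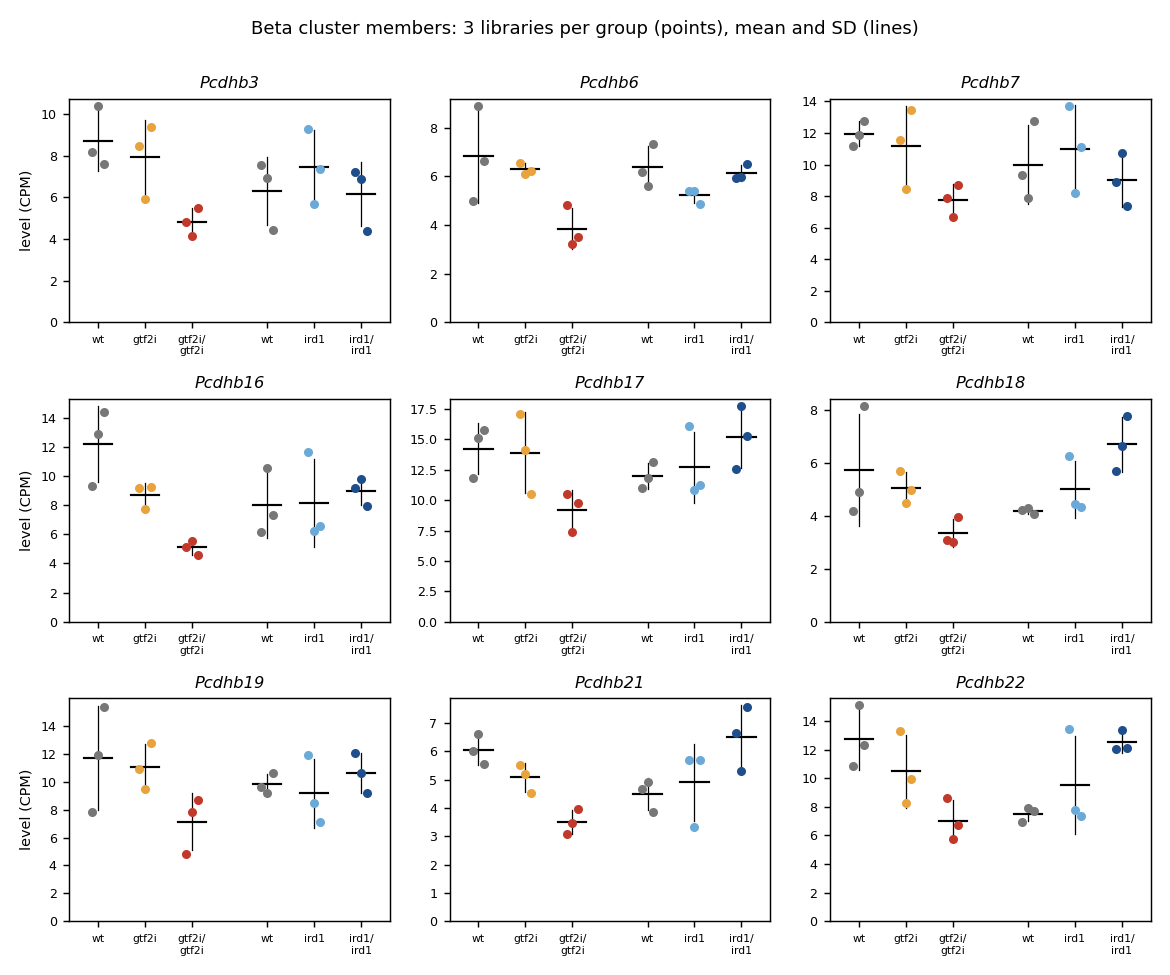
Levels of the 9 measured beta genes in CPM (vertical axes, from 0), with 1 point per library for the gtf2i cross at left and the ird1 cross at right of each panel, horizontal bars for means and vertical lines for the SD. In 8 of the 9 panels the gtf2i/gtf2i points lie below all wt points of the same cross, and in the Pcdhb22 panel the ird1/ird1 points lie above their wt points.

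The gamma genes were mixed. In gtf2i/gtf2i against wt, 15 of 19 log2 fold changes were below 0 and the median was -0.37. The libraries lay wholly below wt in 8 gamma genes (Pcdhga2, Pcdhga3, Pcdhgb1, Pcdhga4, Pcdhgb6, Pcdhgb7, Pcdhga11 and Pcdhgc4) and wholly above wt in 2 (Pcdhga9 and Pcdhgb8), where 8.98% and 7.82% of all genes did so. Only Pcdhgb6 was called. The gamma fold changes ran from -0.89 for Pcdhga2 to 0.75 for Pcdhga9.

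Pcdhgb6 (ENSMUSG00000103088, positions 37742094 to 37841873) is the second most abundant isoform per length. It was at 33.7, 33.1 and 32.8 CPM in wt, at 24.2, 29.8 and 29.8 CPM in gtf2i and at 21.7, 19.2 and 22.4 CPM in gtf2i/gtf2i. The 3 genotypes did not overlap and the gtf2i libraries were intermediate. Its log2 fold change in gtf2i/gtf2i was -0.65 (SE 0.123), with an edgeR adjusted p of 0.022. Leaving out any 1 of 5 libraries (each wt replicate, and gtf2i/gtf2i replicates 1 and 2) raised that adjusted p above 0.05, to at most 0.14, and without gtf2i/gtf2i replicate 3 it was 0.0065. The fold change ran from -0.69 to -0.59 over the 6 fits that left out a library. With the Kdm5c covariate the adjusted p was 0.61 at a fold change of -0.54 (SE 0.224). In the ird1 cross Pcdhgb6 had means of 33.2 ± 2.83 CPM (wt) and 32.4 ± 0.762 CPM (ird1/ird1; SD, n = 3 each), and its groups overlapped.

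Pcdhga2 (ENSMUSG00000103332, positions 37668927 to 37841870), near the start of the gamma array, was at 13.0, 8.88 and 10.2 CPM in wt and at 4.81, 6.93 and 5.80 CPM in gtf2i/gtf2i, a log2 fold change of -0.89 (SE 0.229). Pcdhga9 (ENSMUSG00000102440, positions 37736936 to 37841863) went the other way, with 10.0, 11.0 and 7.60 CPM in wt and 12.0, 20.8 and 15.7 CPM in gtf2i/gtf2i, a log2 fold change of 0.75 (SE 0.207). The groups did not overlap in either gene, and the gtf2i libraries of Pcdhga9, at 8.63, 10.2 and 10.1 CPM, lay within the wt range. The share of Pcdhga9 in the summed gamma CPM was 3.07% ± 0.691 in wt and 6.12% ± 1.82 in gtf2i/gtf2i (SD, n = 3 each). Pcdhga9 lies next to Pcdhgb6 in the array, and the fold changes of these neighbours had opposite signs.

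Pcdhgb8, annotated by RefSeq as a transcribed pseudogene, was the only member whose libraries lay wholly above wt in both homozygotes. It was at 10.0, 8.88 and 7.87 CPM in wt and 12.0, 10.9 and 11.6 CPM in gtf2i/gtf2i, and at 9.03, 7.57 and 6.37 CPM in wt and 9.56, 11.8 and 9.16 CPM in ird1/ird1. The log2 fold changes were 0.37 (SE 0.176) and 0.39 (SE 0.192), and neither was called. Pcdhgc3, the most abundant isoform, was at 85.6, 72.5 and 78.2 CPM in wt and at 66.0, 73.4 and 82.7 CPM in gtf2i/gtf2i. These groups overlapped, with a log2 fold change of -0.09 (SE 0.107). Pcdhgb1 and Pcdhga7 had log2 fold changes of -0.57 (SE 0.205) and -0.51 (SE 0.198) in gtf2i/gtf2i, and the libraries of Pcdhga7 overlapped.

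**Figure D3:**
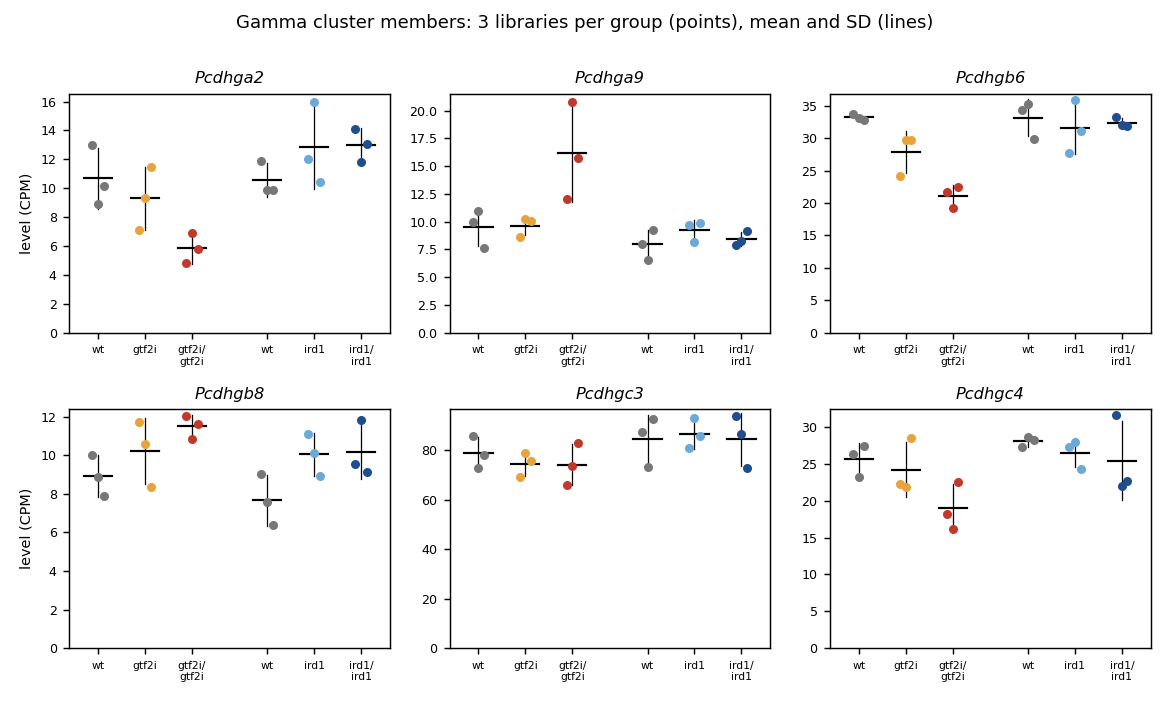
Levels of 6 gamma genes in CPM (vertical axes, from 0), with 1 point per library, horizontal bars for means and vertical lines for the SD, the gtf2i cross at left and the ird1 cross at right of each panel. In gtf2i/gtf2i the points of Pcdhga2 and Pcdhgb6 lie below wt, those of Pcdhga9 and Pcdhgb8 lie above wt, and those of Pcdhgc3 overlap wt.

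Sample titles of the gtf2i cross begin with a number shared by 1 library of each genotype. Deviations of wt and gtf2i/gtf2i libraries with the same number correlated positively, and 5 of these 6 libraries correlated best with their own number. With that number as a replicate block, 8 members rather than 2 were called in gtf2i/gtf2i against wt, namely Pcdhb3, Pcdhb6, Pcdhb16, Pcdhb17, Pcdhb22, Pcdhga2, Pcdhgb6, which were lower, and Pcdhga9, which was higher. In that fit 5.33% of all genes were called. The blocked edgeR adjusted p was 0.0028 for Pcdhb16, 0.0075 for Pcdhgb6, 0.011 for Pcdhb22 and for Pcdhga2, 0.027 for Pcdhb17 and 0.032 for Pcdhga9. Without wt replicate 3 in the unblocked fit 0 members were called at an adjusted p under 0.05, where 0.239% of all genes were called, 12 had an unadjusted p under 0.05, where 9.69% of all genes did, and all 9 beta fold changes were below 0 with a median of -0.82. Without gtf2i/gtf2i replicate 3, 9 members were called, where 9.9% of all genes were called.

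Embryos labelled with 1 mutant allele were compared with wt to ask whether the members also differed at that dose. In gtf2i against wt 0 members were called by edgeR, where 0.00854% of all genes were called. At an unadjusted p under 0.05 there were 2 members, Pcdhb16 and Pcdhga3, where 1.6% of all genes passed it, and DESeq2 also called 0 members and 0.0512% of all genes. All 9 beta fold changes were below 0, where 50.4% of all genes were, with a median of -0.12, and 6 of 9 were below 0 without wt replicate 3 or without gtf2i replicate 2. With 1 library left out that median ran from -0.28 (without wt replicate 1) to -0.089 (without gtf2i replicate 2). The libraries lay wholly below wt in Pcdhb16, Pcdhb21, Pcdhga3 and Pcdhgb6, where 3.79% of all genes did so. The log2 fold change was -0.49 (SE 0.184) for Pcdhb16 and -0.25 (SE 0.119) for Pcdhgb6. This comparison shares its wt libraries with the comparison of gtf2i/gtf2i against wt, so signs in common are not separate evidence.

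The step from gtf2i to gtf2i/gtf2i was examined next. By edgeR 0 members were called, where 3.12% of all genes were called, 14 had an unadjusted p under 0.05, where 16.5% of all genes did, and DESeq2 called 0 members and 4.3% of all genes. All 9 beta fold changes were below 0, where 48.5% of all genes were. Their median was -0.57, and the libraries lay wholly below gtf2i in 7 of them, all but Pcdhb7 and Pcdhb22, where 10% of all genes did so. For Pcdhb16 the fold change was -0.79 on the log2 scale, with SE 0.213 and an edgeR adjusted p of 0.064. Among gamma genes the libraries lay wholly lower in Pcdhga2, Pcdhgb1, Pcdhga4 and Pcdhgb6 and wholly higher in Pcdhga9, where 9.17% of all genes were wholly higher. For Pcdhga9 it was 0.72, with SE 0.206 and an edgeR adjusted p of 0.079. The gtf2i/gtf2i libraries are the ones in which the group was noticed, so this comparison is not independent of the choice.

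The ird1 cross gave 0 called members in ird1/ird1 against wt by edgeR, where 0.00854% of all genes were called, and DESeq2 called 0 members and 0.00854% of all genes. At an unadjusted p under 0.05 there were 3 (Pcdhb18, Pcdhb22 and Pcdhgb1), where 16.1% of all genes passed it. The libraries lay wholly above wt in Pcdhb18, Pcdhb21, Pcdhb22, Pcdhgb1, Pcdhga5 and Pcdhgb8. None lay wholly below wt, where 11.8% of all genes did. The members wholly above were 6 of 29, where 15.1% of all genes lay wholly above, a share near the background. The beta median was 0.23 with 3 of 9 below 0, and the gamma median was 0.02 with 9 of 19 below 0, where 50.5% of all genes were below 0. Pcdhb22 had the highest fold change, 0.74 on the log2 scale with an edgeR adjusted p of 0.30. The highest of the gamma cluster was 0.55 (SE 0.231) for Pcdhgb1, which was below that of the beta gene Pcdhb18. Pcdhgb1 was at 6.02, 5.27 and 4.25 CPM in wt and at 9.0, 6.37 and 7.75 CPM in ird1/ird1. The lowest fold change was that of Pcdhga7, -0.26 (SE 0.159), and its libraries overlapped.

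In ird1 against wt edgeR called 0 members and 0% of all genes, 1 member (Pcdhga4) had an unadjusted p under 0.05, where 3.02% of all genes did, and DESeq2 called 0 members and 0.00854% of all genes. The beta median was 0.12 and the gamma median 0.10. With 1 library left out the beta median ran from -0.064 (without ird1 replicate 1, 5 of 9 below 0) to 0.28 (without ird1 replicate 2). The gamma median ran from 0.093 to 0.18. In ird1/ird1 against ird1 edgeR again called 0 members and 0% of all genes, 0 members had an unadjusted p under 0.05, where 4.66% of all genes did, and DESeq2 called 0 members and 0.00854% of all genes. The beta median there was 0.21 and the gamma median -0.05. With 1 library left out the beta median ran from 0.16 (without ird1 replicate 2) to 0.46 (without ird1 replicate 1). The gamma median ran from -0.13 (without ird1/ird1 replicate 1) to 0.0095 (without ird1/ird1 replicate 3). The 95% normal interval for the log2 fold change of Pcdhb16 in ird1/ird1 against wt ran from -0.27 to 0.74, and that of Pcdhgb6 from -0.29 to 0.21.

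**Figure D4:**
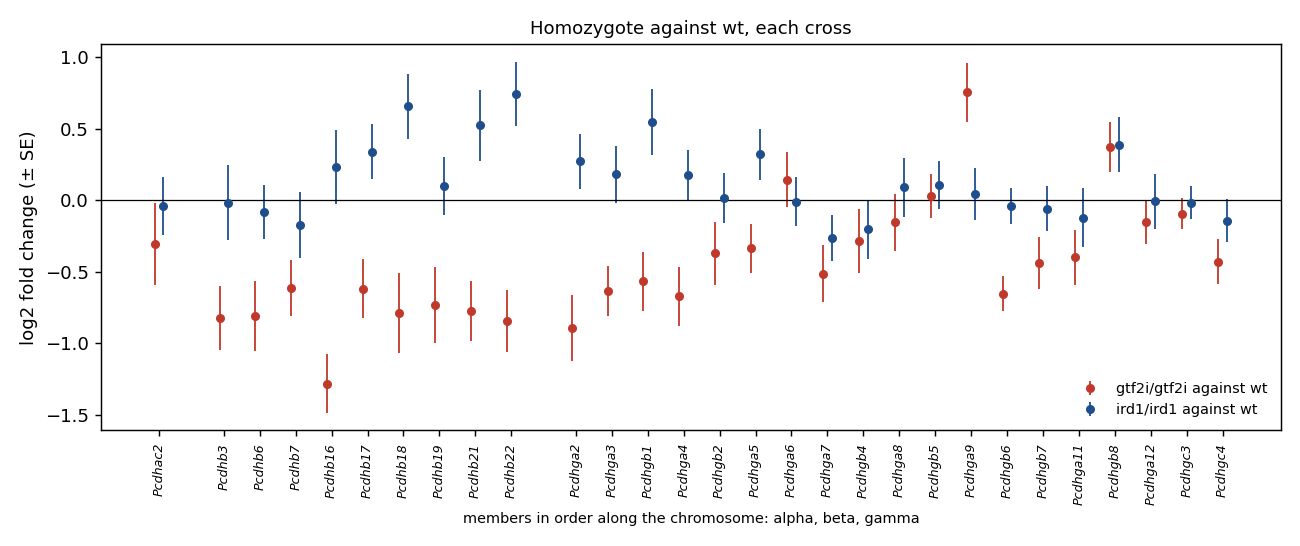
Log2 fold change of each of the 29 members in gtf2i/gtf2i against wt (red) and ird1/ird1 against wt (blue), in order along the chromosome, with bars for the SE. All 9 red beta points lie between -1.28 and -0.61, the red gamma points run from -0.89 to 0.75, and the blue points run from -0.26 to 0.74.

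Subtracting the ird1/ird1 effect from the gtf2i/gtf2i effect, in a fit over all 18 libraries, gave the other comparison that brought the group to attention. All 9 beta differences were below 0, with a median of -0.96, and 17 of 19 gamma differences were below 0, with a median of -0.28, against 51.6% below 0 over all genes. Pcdhb22 was the only member called, where 0.171% of all genes were called, with a difference of -1.59 (SE 0.326, edgeR adjusted p 0.0496). That call was lost when any 1 of 10 libraries was left out, with an adjusted p of at most 0.17, and kept without wt replicate 1 of the gtf2i cross (0.038) or gtf2i/gtf2i replicate 3 (0.017). The difference was -1.52 (SE 0.347, edgeR adjusted p 0.080) for Pcdhb16, -1.17 (SE 0.30) for Pcdhga2, -0.62 (SE 0.167) for Pcdhgb6 and 0.71 (SE 0.281) for Pcdhga9. With the title number as a replicate block 4 members were called in this difference, where 0.709% of all genes were called, and the blocked edgeR adjusted p was 0.0087 for Pcdhb22, 0.041 for Pcdhb16, 0.047 for Pcdhga2 and 0.048 for Pcdhb18. That fit also blocks libraries of the ird1 cross. Deviations of same-numbered libraries there correlated at a mean of 0.0101 (-0.295 to 0.281), against -0.00811 (-0.325 to 0.38) for other pairs. The title number thus did not pair that cross, and these blocked calls carry that limit.

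The wt groups of the crosses were compared as well. These embryos carry no mutant allele by their labels, and edgeR called 0 members and 0% of all genes between them, whereas DESeq2 called 0 members and 13.3% of all genes. At an unadjusted p under 0.05 there were 2 members (Pcdhb16 and Pcdhb22), where 32.7% of all genes passed it. All 9 beta genes were higher in the wt of the gtf2i cross, so 0 of 9 differences were below 0, where 51.2% of all genes were. Their median log2 difference was 0.44, against -0.01 over all genes. The libraries did not overlap in Pcdhb3, Pcdhb21 and Pcdhb22, where 16.3% of all genes lay wholly higher. The difference was 0.77 (SE 0.234, edgeR adjusted p 0.069) for Pcdhb22 and 0.68 (SE 0.236, edgeR adjusted p 0.077) for Pcdhb16, and both were called without wt replicate 1 of the gtf2i cross, where 17.7% of all genes were called. Without wt replicate 3 of the gtf2i cross, 8 of 9 beta genes were higher and the median was 0.18. Against the wt of the other cross, the beta sum of gtf2i/gtf2i (47.1 to 55.4 CPM) was also lower without overlap (65.6 to 71.3 CPM). Cross and any difference in how or when the crosses were processed cannot be told apart.

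Along the arrays the log2 fold change in gtf2i/gtf2i against wt had a Spearman correlation with position of 0.474 over the 19 gamma genes, and in ird1/ird1 against wt of -0.491. Over the 9 beta genes it was 0.0333 in the first and 0.8 in the second. The genes of an array share libraries, and depth differs between them, so these are descriptions. Genes in the same stretch of the chromosome were examined as well. Of 25 genes between the clusters or within 10 protein-coding genes of them, 18 were in the table and 0 were called in gtf2i/gtf2i against wt by edgeR, where 0.94% of all genes were called, with 4 at an unadjusted p under 0.05, where 14.4% of all genes were, and a median of -0.01. Their fold changes ran from -0.78 (SE 0.225) for Rell2 to 0.37 (SE 0.136) for Tmco6. In gtf2i/gtf2i against gtf2i 1 of the 18 was called by edgeR, Pcdh1, which was lower, where 3.12% of all genes were called. Taf7, named for its place as the 1 gene of the table between the arrays, encodes a subunit of the general transcription factor TFIID. It was at 19.7, 21.7 and 19.8 CPM in wt and at 22.7, 22.6 and 25.5 CPM in gtf2i/gtf2i, with a log2 fold change of 0.21 (SE 0.127).

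Other genes of the pathway were taken from lists. Of 26 regulators of the clusters, which include CTCF, cohesin subunits, DNA methyltransferases and heterochromatin factors, 26 were in the table. In gtf2i/gtf2i against wt 0 were called, where 0.94% of all genes were, and 0 had an unadjusted p under 0.05, where 14.4% did. The median was 0.09, and the range ran from -0.12 (SE 0.0817) for Wiz, a zinc-finger partner of histone methyltransferases, to 0.21 (SE 0.152) for Dnmt3b, a de novo DNA methyltransferase. In ird1/ird1 against wt 8 were higher and 1 lower at an unadjusted p under 0.05, where 16.1% of all genes passed it. Between the wt groups 12 were higher and 3 lower in the gtf2i cross at that threshold, where 32.7% of all genes passed it. Of 29 genes of protocadherin signalling and processing, 27 were in the table. In gtf2i/gtf2i against wt 0 of them were called, where 0.94% of all genes were, and 2 had an unadjusted p under 0.05, where 14.4% did. Their median was -0.02, from -0.36 (SE 0.182) for Prkca to 0.20 (SE 0.202) for Aph1a. Of 39 other cadherin superfamily genes, 33 were in the table, 0 were called, 12 had an unadjusted p under 0.05, where 14.4% of all genes did, and the median was -0.11, from -0.66 (SE 0.245) for Pcdh15 to 0.36 (SE 0.178) for Cdh6. Against gtf2i, 7 of these 33 were called by edgeR, where 3.12% of all genes were called, with Pcdh1, Pcdh19, Celsr1, Cdh4, Cdh13 and Clstn3 lower and Pcdh18 higher in gtf2i/gtf2i. Cdh13, for example, had means of 49.3 ± 3.08 CPM (gtf2i) and 32.0 ± 4.84 CPM (gtf2i/gtf2i; SD, n = 3 each), with an edgeR adjusted p of 0.027.

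Markers of brain cell types moved in the same libraries, and in whole brain fewer cells of a type and less RNA per cell cannot be told apart. The summed CPM of 20 neuronal markers, all 20 of them in the table, was 7404 to 8229 in wt and 6111, 6251 and 8110 in gtf2i/gtf2i replicates 1, 2 and 3, with 17 of 20 fold changes below 0. That of 17 telencephalon markers was 1989 to 2220 in wt and 1541 to 1621 in gtf2i/gtf2i, and 7 of the 17 were called, all lower, where 0.94% of all genes were called in either direction. Of 8 intermediate progenitor markers 1 was called, Eomes, which was lower and is also on the telencephalon list, but the median of that list was 0.22 and its sum ran from 857 to 1027 CPM in wt and from 959 to 1110 CPM in gtf2i/gtf2i. Mesenchyme markers summed to 1179 to 1376 CPM in wt and 1286 to 2039 CPM in gtf2i/gtf2i, with 0 of 14 called. Radial glia markers summed to 3494 to 3913 and 4190 to 4844 CPM, red blood cell markers to 4091 to 5314 and 5790 to 9184 CPM, and choroid plexus markers to 298 to 386 and 225 to 252 CPM, in wt and gtf2i/gtf2i. Fold changes were below 0 in 16 of 17 telencephalon, 4 of 16 radial glia, 2 of 8 intermediate progenitor, 3 of 14 mesenchyme, 0 of 8 red blood cell and 2 of 6 choroid plexus markers. Of the red blood cell markers 2 were called, Hbb-y and Slc4a1, both higher. The 1 choroid plexus marker called lower was Ttr, the carrier of thyroid hormone, at 213 ± 37.2 CPM (wt) and 69.0 ± 13.1 CPM (gtf2i/gtf2i; SD, n = 3 each), and 0 were called higher. Markers are named here after their values were seen. Per 1000 CPM of neuronal markers the beta sum was 11.5 ± 1.29 CPM (wt) and 7.67 ± 0.908 CPM (gtf2i/gtf2i; SD, n = 3 each), and these libraries did not overlap. The gamma sum per 1000 CPM of neuronal markers was 40.1 ± 3.47 and 39.3 ± 2.61 CPM (SD, n = 3 each), which overlapped. Per 1000 CPM of telencephalon markers the beta sum ran from 34.1 to 49.1 CPM in wt and from 30.6 to 35.6 CPM in gtf2i/gtf2i, which overlapped, and the gamma sum from 144 to 149 CPM and from 154 to 189 CPM, wholly higher in gtf2i/gtf2i. Per 1000 CPM of radial glia markers the beta sum was 19.2 to 28.2 CPM in wt and 9.73 to 13.2 CPM in gtf2i/gtf2i, and the gamma sum 74.5 to 91.6 CPM and 52.4 to 70.2 CPM, both wholly lower in gtf2i/gtf2i. The direction of the gamma sum thus depended on the marker list it was set against. The part of telencephalon, glial and blood RNA in the beta and gamma values was not tested. Kdm5c, an X-linked demethylase, was at 286, 303 and 287 CPM in wt, at 401, 395 and 379 CPM in gtf2i and at 314, 397 and 384 CPM in gtf2i/gtf2i. Both mutant groups lay wholly above wt, and they overlapped each other. Kdm5c level and genotype are thus confounded in this cross, and a covariate fit cannot tell them apart. What lay behind the Kdm5c levels was not tested. With the Kdm5c level as a covariate 0 members were called by edgeR in gtf2i/gtf2i against wt, against 0.0598% of all genes. At an unadjusted p under 0.05 there were 6, where 7.94% of all genes passed it. In that fit all 9 beta fold changes were below 0 with a median of -0.87, and 14 of 19 gamma fold changes with a median of -0.24.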

How the data were processed

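The authors deposited whole-number read counts per gene, without normalization, for 11708 genes in 18 libraries. Per the submitters' processing notes Trimmomatic, STAR, HTSeq and build mm10 were used, and versions, annotation, counting mode and strand setting are not given in the sources used here. Total counts per library ran from 3239117 to 7371483. Library sizes were scaled with TMM (trimmed mean of M values), and counts were tested with edgeR 4.0.16 (glmQLFit and glmQLFTest) in R 4.3.3, with Benjamini-Hochberg adjustment over all genes and a threshold of 0.05. Within a cross the 9 libraries were fitted together, and between crosses all 18. CPM use the scaled library sizes. Alternatives were DESeq2 1.42.0, other size factors, filters, sample sets, the title number as replicate block, leaving out each library, and Kdm5c as a covariate, which was added after seeing the data. For wt and gtf2i/gtf2i, deviations of same-numbered libraries correlated at 0.373, 0.104 and 0.514, so those libraries were taken as pairs. Of these 6 libraries 5 correlated best with their own number. The exception was gtf2i/gtf2i replicate 1, at 0.199 with wt replicate 1. Pairs with different numbers in the gtf2i cross ran from -0.433 to 0.199. The method was tested on simulated data.

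The members and lists were chosen with earlier results of these data known. Every member could be named with its level. Fold changes are given for members called in any of 8 contrasts, the highest of each cluster, the largest rise and fall of each cluster in each homozygote, and members not overlapping in the same direction in both crosses. From the other lists, marker lists apart, called genes and otherwise the highest and lowest fold change are named. Replicate pairs within a group differed beyond counting noise (chi-square per degree of freedom of at least 2.9). The largest values, 23.7 and 29.5, were those of gtf2i/gtf2i replicate 3 with replicates 1 and 2.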

Additional observations from a re-analysis of the deposited data

Results flagged for a closer look

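Pcdhb22 is singled out because its homozygous effects differed between the crosses in a direct test. The gtf2i/gtf2i effect minus the ird1/ird1 effect was a log2 difference of -1.59, with SE 0.326 and an adjusted p of 0.0496 by edgeR, with the gtf2i/gtf2i libraries at 8.59, 5.77 and 6.71 CPM against 10.8, 15.1 and 12.3 CPM in wt, and the ird1/ird1 libraries at 12.0, 13.4 and 12.1 CPM against 6.93, 7.90 and 7.72 CPM in wt. The wt groups themselves did not overlap. This difference is one of the results that led to the group being examined, so its p is a description, and the call was lost when any 1 of 10 of the libraries was left out.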

How the results depend on the processing

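In gtf2i/gtf2i against wt the number of members called, 2 in the report, was 5 with DESeq2 (2.75% of all genes called), 1 with a mean of at least 10 CPM (1.06%, a filter that leaves Pcdhb16 untested), 1 with only the groups compared (0.265%), 8 with the replicate block (5.33%), 4 with all 18 libraries fitted (2.24%), 0 with the Kdm5c covariate (0.0598%) and 0 to 9 when each library was left out. In gtf2i/gtf2i against gtf2i, where 0 were called, it was 4 with the replicate block (7.62%), 1 with all 18 libraries (4.05%), 1 with the Kdm5c covariate (1.38%) and 0 to 2 with a library left out. In the difference between effects, where 1 was called, it was 0 with relative log expression size factors (0.154%), 2 with DESeq2 (0.717%), 0 with a mean of at least 10 CPM (0.174%, a filter that leaves Pcdhb22 untested), 4 with the replicate block (0.709%), 0 with the Kdm5c covariate (0.0769%) and 0 to 8 with a library left out. Between the wt groups it was 0 to 2 with a library left out. The number of all genes called ran from 7 to 1159, 67 to 1376, 9 to 723 and 0 to 2076 in these 4 comparisons, in this order, from 1 to 6 in gtf2i against wt and from 0 to 1 in the ird1 cross, and DESeq2 called 1561 genes between the wt groups. For gtf2i against wt the replicate block called 0 members. Title numbers did not pair the libraries with gtf2i by the rule used, although each of the 6 libraries correlated best with its own number in both comparisons with gtf2i. Cluster sums moved by less than the spread between libraries under every alternative run. The sign reversed for Pcdhgc3 in ird1/ird1 against wt with a mean of at least 10 CPM (0.0039) and for Pcdhgb8 in the difference with the Kdm5c covariate (0.0096). With a library left out, ird1/ird1 against wt reversed for Pcdhac2 (-0.21 to 0.17), Pcdhgb6 (-0.10 to 0.0096), Pcdhgc3 (-0.093 to 0.078), Pcdhb7 (-0.30 to 0.047) and Pcdhga9 (-0.038 to 0.17), and the difference reversed for Pcdhgb8 (-0.20 to 0.11) and Pcdhgc3 (-0.18 to 0.0096). Except where a filter left a gene untested, the cause was not tested. Member counts down to 13 limit what single isoforms can show, and intervals cover these libraries only.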
